A study of Zea mays with 18 samples.

Results

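The 150 genes described here had their highest transcript levels in the upper leaves of maize and were chosen by that level. They were taken from 31855 gene models measured in leaves of the hybrid Xianyu 335 during grain filling. The groups HA and LA hold the third leaf above the ear at high and at low plant density. The ear leaf gave HE and LE, and the third leaf under it gave HB and LB, in the same order of density. Each of these 6 groups had 3 libraries, named by their titles, from plants otherwise grown under normal conditions. For LA the label of treatment reads high plant density, against the titles, so each comparison of HA with LA carries that conflict. No label tells whether a group's 3 libraries came from different plants, so p-values measure only the spread between these libraries, which may be technical. A level of 1 RPKM or more in 3 or more libraries was reached by 21184 genes, RPKM being reads scaled by gene length and library size. For each of them, the mean of log2(RPKM + 0.5) was taken in every group. The score of a gene was the smaller of its HA and LA means minus the highest of its HE, LE, HB and LB means, and the 150 highest scores were kept.

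A maize canopy is a column of leaves of different age and light. The upper leaves are younger and better lit, the ear leaf supplies much of the sugar for the kernels, and the lower leaves are shaded and age first. Cytokinins delay leaf ageing and induce type A response regulators, which damp the cytokinin signal, and cytokinin oxidases, which destroy the hormone. Light in the leaf promotes flavonoids and carotenoids, which screen and dissipate excess light, while MADS-box transcription factors of the APETALA1 class are best known from the change to flowering.

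Scores ran up to 2.09 with a median of 0.93, and 58 of the 150 genes scored at least 1. These scores describe the choice and are no test. The last genes inside the limit were aoc2 (GRMZM2G415793) and GRMZM2G073244, both at 0.71, and glk1 (GRMZM2G026833) at 0.70. The first outside were GRMZM2G060011 at 0.70, GRMZM2G376103 at 0.69 and GRMZM2G433684 at 0.69, so no gap separates the set from the genes that follow. In 104 of the 150 genes all 6 HA and LA libraries lay above all 12 others, a pattern shown by 1.06% of all tested genes and one that the rule favours. For 21 genes the filter on low values was passed only through HA and LA libraries, and 8 genes lay under 1 RPKM in all 12 others.

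The genes were not abundant as a class. Their mean over HA and LA had a median of 10.7 RPKM, against 9.71 RPKM for all tested genes, and ran from 0.887 RPKM to 3721 RPKM. At this level 39 genes lay under 5 RPKM, 85 between 5 and 50 RPKM, and 26 at 50 RPKM or above. The median over the 150 genes was 11.6, 8.32 and 13.4 RPKM in the HA libraries and 12.5, 11.4 and 9.51 RPKM in the LA libraries. It was 3.11, 3.29 and 3.87 RPKM in HE, 3.42, 4.08 and 4.17 RPKM in LE, 1.64, 1.35 and 1.62 RPKM in HB, and 3.57, 1.87 and 2.99 RPKM in LB. The HB libraries were thus the lowest, and LB replicate 2 lay nearer to HB than its group partners did. The highest single library was HA replicate 3 for 66 genes and LA replicate 1 for 27, and these 2 libraries correlated at 0.982 across genes, more closely than either did with its own group.

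**Figure D1:**
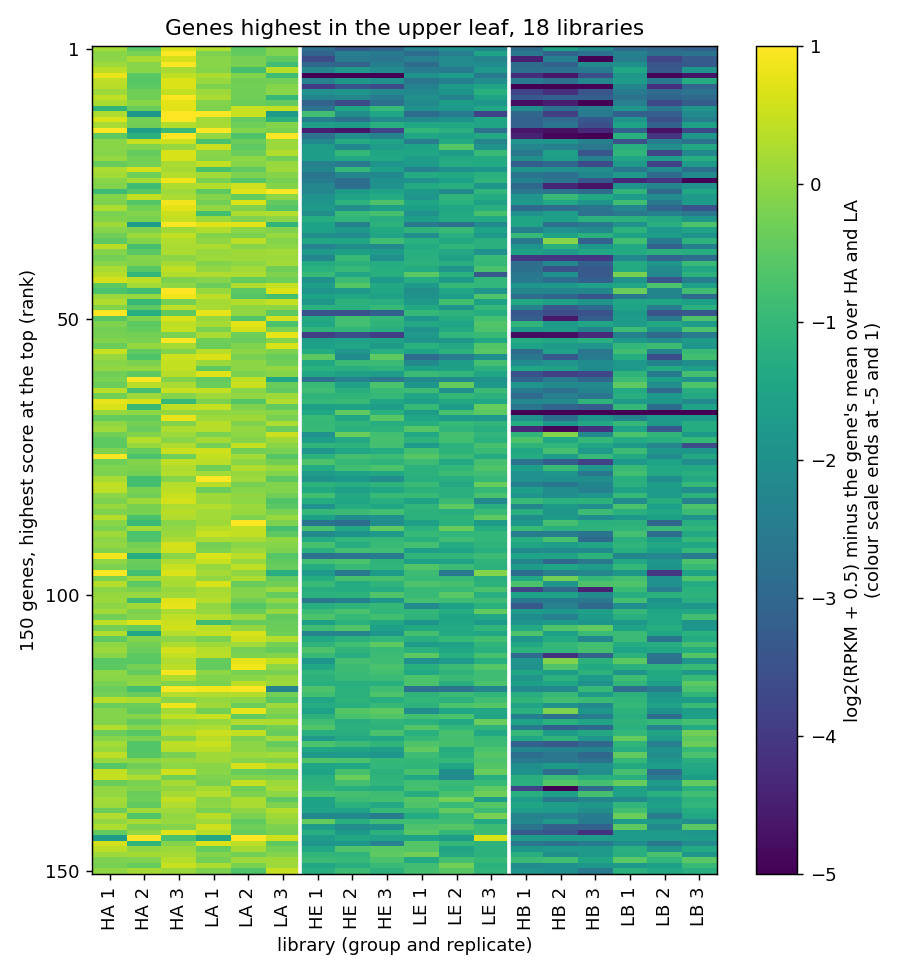
Level of each of the 150 genes (rows, highest score at the top) in the 18 libraries (columns), as log2(RPKM + 0.5) minus the gene's mean over HA and LA, with colour from -5 (dark) to 1 (yellow). The 3 HB columns are darkest for most genes, LB replicate 2 is darker than the other LB columns, and MADS15 at rank 67 is a dark line across all 6 HB and LB columns.

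Each library summed to between 560984 and 595593 RPKM, with 25749 to 27316 genes above 0. Read totals were not given, but a relative depth recovered from rare genes differed by 1.27 times at most, and 1 read stood for a median of 0.0508 RPKM in such genes. LB replicate 2 stood apart across all genes, correlating at 0.954 to 0.957 with the other LB libraries and at 0.966 with LE replicate 2. The tissue label was checked against marker lists, none of which held any of the 150 genes. The 6 mesophyll models, for 4 of 6 symbols sought, summed to 11465 to 12541 RPKM in HA, 10534 to 14066 RPKM in LA, 9131 to 11191 RPKM in HE, 10655 to 13262 RPKM in LE, 2241 to 3208 RPKM in HB and 6426 to 12269 RPKM in LB. Models for meristem (2 of 4 symbols sought) and anther (1 of 4) were low. They summed to 1.19 RPKM at most in the 2 meristem models and 0.0888 RPKM in the anther model. The root model (1 of 3 symbols) reached 3.46 RPKM.

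A RefSeq gene table matched 110 of the 150 models (73.3%), against 67.1% of all tested genes, and gave 32 of them a usable name. A part of the named genes fell into the families given here, and the others into none of them. These families were put together after the names had been seen and are therefore described by counts and scores, with no test. Cytokinin response regulators gave 4 of 11 tested models, carotenoid genes 4 of 14, flavonoid synthesis genes 3 of 10, MADS-box genes 3 of 20, and jasmonate synthesis and repressor genes 3 of 37. Cytokinin oxidases gave 1 of 7, kinases of phosphoenolpyruvate carboxylase 1 of 3, nitrate and nitrite reductases 1 of 2, and GOLDEN2-like factors 1 of 7. In families with at least 7 tested models, the median score was 0.40 for the response regulators and 0.20 for the oxidases. It was -0.14 for the carotenoid genes, -0.21 for flavonoid synthesis and -0.54 for the jasmonate genes. The GOLDEN2-like factors had -0.60, the MADS-box genes -0.72 and all tested genes -0.39. The score is the quantity that chose the 150 genes, so a raised family median follows in part from the choice and is no test. Both tested models of pac1, a regulator of anthocyanin genes, scored below 0.

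**Figure D2:**
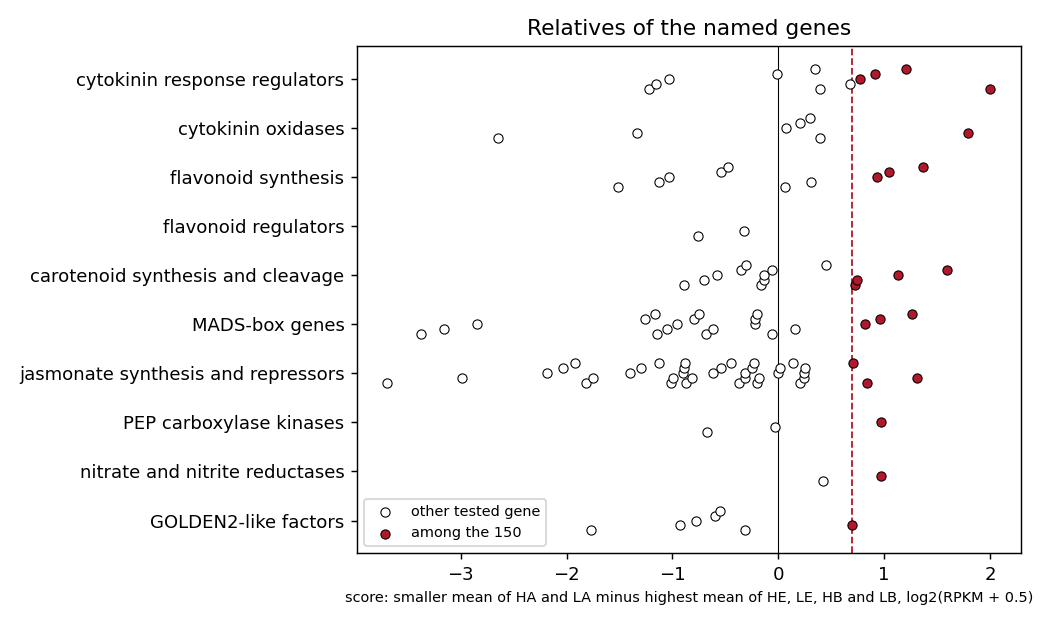
Score of every tested gene of 10 families (rows), as the smaller mean of HA and LA minus the highest mean of HE, LE, HB and LB on the scale of log2(RPKM + 0.5). Filled points are among the 150 genes, open points are other tested relatives, and the dashed line marks the lowest score kept, 0.70; MADS-box and jasmonate genes spread far to the left of 0, the response regulators mostly do not.

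crr1 (GRMZM2G040736), a cytokinin response regulator, had the third highest score. Its level was 56.6, 69.9 and 88.9 RPKM in HA and 55.7, 50.3 and 41.7 RPKM in LA. The 12 other libraries ran from 1.07 RPKM over a median of 9.27 RPKM to 13.0 RPKM. No upper library overlapped any other, and every HA library lay just above every LA library, with a log2 difference of 0.53 ± 0.50 (SE, adjusted p = 0.782). crr2 (GRMZM2G392101), a second response regulator, had 28.7, 43.0 and 37.3 RPKM in HA and 28.8, 23.3 and 30.3 RPKM in LA, against 6.92 to 16.2 RPKM in the 12 others. Neither was called in any density or leaf comparison outside the rule. Without HB replicate 2, though, crr1 fell in HB by 1.70 against LB (limma adjusted p = 0.00303) and by 1.91 against HE (adjusted p = 0.00171). With all libraries these log2 differences were -0.88 and -1.10 (limma adjusted p = 0.189 and 0.116). Without HB replicate 1, crr2 rose in HB against LB by 0.69 (adjusted p = 0.0425).

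RR7 (GRMZM2G096171) and crr5 (GRMZM2G156019), response regulators too, scored 0.92 and 0.77. RR7 had 65.9, 62.6 and 94.2 RPKM in HA and 83.5, 77.7 and 69.5 RPKM in LA. The lower leaf had 18.8, 20.3 and 11.6 RPKM in HB, against 42.0, 28.3 and 31.3 RPKM in LB. These 2 groups did not overlap, and RR7 fell in HB by 0.999 ± 0.200 on the log2 scale (limma, adjusted p = 0.00142), a call kept without any 1 library. crr5 fell by 0.49 (limma adjusted p = 0.0379), a call lost when replicate 1 or 3 of HB or of LB was left out. It was also lost without the filter and in a fit of HB and LB alone (adjusted p up to 0.169 in these settings). The crr5 name was shared by further gene models, GRMZM2G032496 and GRMZM6G980248, at scores of -0.02 and 0.67, so which of them it belongs to is uncertain. Among the other relatives RR6 (GRMZM2G129954) and RR4 (GRMZM2G319187) also fell in HB against LB, by 1.16 and 1.09, while RR8 (GRMZM2G099797) rose by 0.69. RR8, RR9 (GRMZM2G060485) and RR10 (GRMZM2G126834) scored -1.15, -1.22 and -1.03, so these 3 were not highest in the upper leaf. The names alone do not tell which of these relatives are of type A.

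CKX5 (GRMZM2G325612), a cytokinin oxidase, held the sixth score and showed the widest density difference of the set in the ear leaf. It had 77.9, 29.99 and 58.7 RPKM in HA and 52.5, 39.7 and 23.5 RPKM in LA. In the ear leaf it had 0.27, 0.247 and 0.813 RPKM in HE, against 11.1, 13.5 and 7.17 RPKM in LE, with no overlap. The log2 difference was -3.56 ± 0.61 (SE, limma adjusted p = 0.00267), and the call was kept without any 1 library. Below the ear it had 1.88, 1.28 and 3.23 RPKM in HB, against 11.8, 0.935 and 1.24 RPKM in LB. These groups overlapped, since LB replicate 1 alone was high (log2 difference -0.32, adjusted p = 0.717). Without that library CKX5 fell in LB against LE by 2.77 (adjusted p = 0.00858), a difference not called with it (0.246). Its relative cko2 (GRMZM2G050997) also fell in HE against LE, by 1.06 (adjusted p = 0.0123), and CKX10 (GRMZM2G348452), which scored -2.65, rose by 1.32 (adjusted p = 0.0276).

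**Figure D3:**
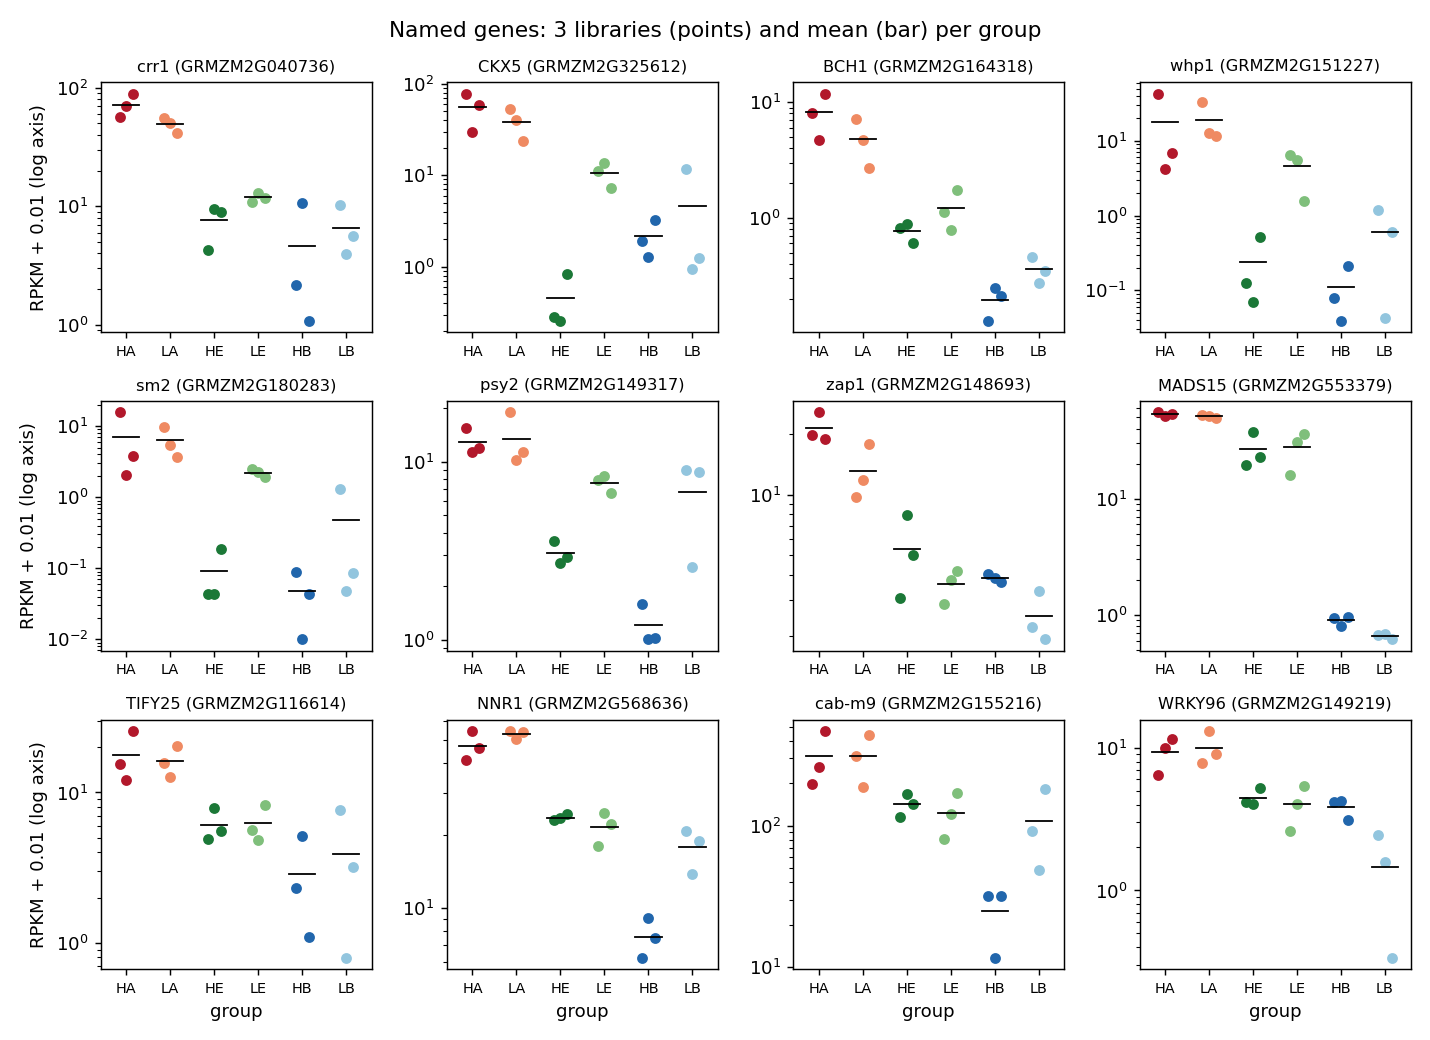
RPKM of 12 named genes on a log axis after adding 0.01 (points, 3 libraries per group; bar, mean) in HA, LA, HE, LE, HB and LB. CKX5, whp1 and sm2 lie far lower in HE than in LE, cab-m9, psy2 and NNR1 lower in HB than in LB, and MADS15 is below 1 RPKM in every HB and LB library.

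Of the flavonoid genes, whp1 (GRMZM2G151227) and c2 (GRMZM2G422750) encode chalcone synthase, the entry enzyme of the pathway, and sm2 (GRMZM2G180283) a rhamnosyltransferase of maysin, a flavone of silks. whp1 had 42.6, 4.17 and 6.95 RPKM in HA and 32.5, 12.6 and 11.7 RPKM in LA, so its upper level rested in part on replicate 1 of both groups. In the ear leaf it had 0.117, 0.0588 and 0.514 RPKM in HE, against 6.48, 5.52 and 1.58 RPKM in LE. The groups did not overlap, and whp1 fell in HE by 2.65 ± 0.67 (limma adjusted p = 0.0176). Leaving out HE replicate 2 or either of LE replicates 1 and 2 ended the call (adjusted p up to 0.0799).

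sm2 had 15.6, 2.05 and 3.75 RPKM in HA and 9.68, 5.49 and 3.72 RPKM in LA, again highest in replicate 1. In the ear leaf it had 0.0338, 0.034 and 0.175 RPKM in HE, against 2.46, 2.25 and 1.94 RPKM in LE. Each HE library lay far below each LE library, and sm2 fell by 2.23 ± 0.54 (limma adjusted p = 0.0141), a call lost without HE replicate 2 or LE replicate 1 (up to 0.0555). In LB only replicate 1, at 1.31 RPKM, stood above 0.1 RPKM. c2 was broader, with 77.8, 23.3 and 30.8 RPKM in HA and 52.6, 43.3 and 25.5 RPKM in LA, against 8.58 to 25.6 RPKM in the 12 others, and had a log2 difference of -0.01 between HE and LE (adjusted p = 0.99). Outside the 150, sm1 (GRMZM2G031311) and UGT708A6 (GRMZM2G162783), both of flavone glycoside synthesis, fell in HE by 1.49 and 1.04 (adjusted p = 0.0247 and 0.0267). A model named a2 (GRMZM6G474234), after a gene of anthocyanin synthesis, scored -1.13 and rose in HB against LB by 0.89 (limma adjusted p = 3.8e-05). The a2 name was shared by GRMZM2G345717, which averaged at most 0.174 RPKM in any group and was not tested. Which of them the name belongs to is uncertain.

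Carotenoid genes among the 150 were psy2 (GRMZM2G149317), a phytoene synthase at the head of the pathway, the beta-carotene hydroxylases BCH1 (GRMZM2G164318) and BCH2 (GRMZM2G152135), and CCD7 (GRMZM2G158657), a cleavage dioxygenase of strigolactone synthesis. BCH1 had 8.10, 4.75 and 11.9 RPKM in HA and 7.10, 4.68 and 2.67 RPKM in LA, against 0.119 to 1.73 RPKM in the 12 others. BCH2 had 17.0, 7.30 and 15.2 RPKM in HA and 15.6, 12.1 and 12.7 RPKM in LA, against 1.05 to 5.98 RPKM. Neither hydroxylase overlapped between the upper leaf and the rest, and neither was called between HE and LE or between HB and LB. BCH2 came closest in the ear leaf, at a log2 difference of -0.999 and adjusted p = 0.0629, and was called there after quantile normalization (0.0371) and with only HE and LE fitted (0.00564). In the lower leaf it was called higher in HB without LB replicate 1 (log2 difference 1.14, adjusted p = 0.0143), against 0.70 with all libraries (0.128), and without that library it also fell in LB against LE (-1.57, 0.043). CCD7 was scarce, at 1.45 to 3.96 RPKM in the 6 upper libraries and 0.229 to 1.44 RPKM in the others.

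psy2 was lower at high density in both leaves below the top. It had 15.4, 11.2 and 11.9 RPKM in HA and 18.9, 10.1 and 11.3 RPKM in LA. In the ear leaf it had 3.58, 2.70 and 2.90 RPKM in HE, against 7.84, 8.24 and 6.62 RPKM in LE, and fell by 1.18 ± 0.33 (limma adjusted p = 0.029). That call was lost when any of 5 libraries was left out, and also without the filter (adjusted p up to 0.101). In the lower leaf it had 1.58, 0.997 and 1.02 RPKM in HB, against 8.95, 2.55 and 8.70 RPKM in LB, with LB replicate 2 nearest to HB. It fell by 1.94 ± 0.33 (adjusted p = 0.000496), and here the call was kept without any 1 library. Of the 14 tested carotenoid models 9 fell and 2 rose in HB against LB, where 11.3% of all tested genes fell and 22.1% rose. The more abundant phytoene synthase PSY1 (GRMZM2G300348) was among the 9 and scored -0.13, so it was not highest in the upper leaf.

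The MADS-box genes were zap1 (GRMZM2G148693) and MADS15 (GRMZM2G553379), relatives of APETALA1, and zmm31 (GRMZM2G071620). MADS15 had 55.2, 51.7 and 53.6 RPKM in HA and 52.2, 51.7 and 49.7 RPKM in LA. It had 19.6, 37.7 and 22.8 RPKM in HE and 15.9, 30.9 and 35.9 RPKM in LE. Below the ear it had 0.938, 0.796 and 0.945 RPKM in HB and 0.668, 0.677 and 0.606 RPKM in LB. The step between the ear leaf and the lower leaf was thus far wider than the spread of each group. The upper leaf stood above the ear leaf by the rule, and HE and LE each spread over a wide range. The log2 difference was -4.23 ± 0.24 for HB minus HE and -4.53 ± 0.24 for LB minus LE (limma adjusted p = 1.85e-08 and 2.51e-08), both kept in every alternative tried. A relative outside the set, m4 (GRMZM2G032339), also fell below the ear, by 3.34 in HB against HE and by 4.72 in LB against LE. It scored only -0.06, since its smaller upper mean, 79.5 RPKM in LA, lay just under that of 83.04 RPKM in HE.

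zap1 had no called step between the ear leaf and the lower leaf. Its log2 difference was -0.34 for HB minus HE and -0.48 for LB minus LE (limma adjusted p = 0.382 and 0.524). In the upper leaf zap1 had 19.8, 25.6 and 19.0 RPKM in HA and 9.77, 11.8 and 17.9 RPKM in LA. The 12 other libraries ran from 1.90 RPKM over a median of 3.72 RPKM to 7.95 RPKM. zmm31 had 1.98, 2.52 and 2.17 RPKM in HA and 0.54, 0.875 and 0.898 RPKM in LA, and was at or below 0.33 RPKM elsewhere. Every HA library of zap1 and of zmm31 lay above every LA library. The zmm31 difference of 1.11 ± 0.21 missed the threshold (limma adjusted p = 0.0545), and it passed with a pseudocount of 1 (0.0215), without the filter (0.0223) and with the replicate block (0.0297). For zap1 the difference was 0.72 ± 0.27 (adjusted p = 0.458). MADS15 and zmm31 are direct neighbours on chromosome 5 in the gene table of another assembly, and their log2 levels correlated at 0.66 over the 18 libraries, which share the leaf positions that chose both genes. The lowest scores of the 20 tested MADS-box genes were those of m20 (GRMZM2G059102), m21 (GRMZM5G814279) and m5 (GRMZM2G171365), at -3.38, -3.16 and -2.84.

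Jasmonate, a wound and defence hormone, was represented by TIFY25 (GRMZM2G116614), of the family of its repressors, ts1 (GRMZM2G104843), a lipoxygenase needed for male flower fate, and aoc2, an allene oxide cyclase. TIFY25 had 15.4, 12.1 and 25.6 RPKM in HA and 15.6, 12.6 and 20.3 RPKM in LA, against 0.782 to 8.26 RPKM in the 12 others. ts1 had 11.7, 14.98 and 16.2 RPKM in HA and 13.6, 16.2 and 9.78 RPKM in LA, and HB replicate 2 reached 11.02 RPKM, so the leaves overlapped. aoc2 was at 47.1 to 71.8 RPKM in the upper leaf and at 20.5 to 38.9 RPKM elsewhere. None of these 3 was called in any comparison outside the rule, but TIFY25 fell in HB against HE when HB replicate 2 was left out (log2 difference -1.62, adjusted p = 0.0419). Of the 37 tested jasmonate genes 14 rose and 2 fell in HB against LB, where 22.1% of all tested genes rose and 11.3% fell, and aos1 (GRMZM2G067225), an allene oxide synthase, scored -3.69.

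Further named genes act in the chloroplast or in primary metabolism. The most abundant of the 150, thi2 (GRMZM2G074097), which makes the thiazole part of thiamine, had 3393, 2589 and 4828 RPKM in HA and 4256, 3672 and 3587 RPKM in LA. It had 731, 367 and 487 RPKM in HB, against 1275, 674 and 1587 RPKM in LB, and LB replicate 2 fell inside the HB range. thi2 fell in HB by 1.13 ± 0.34 (limma adjusted p = 0.0177), a call lost when HB replicate 2 or 3 or LB replicate 1 or 3 was left out, without the filter, and in a fit of HB and LB alone (adjusted p up to 0.0955).

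cab-m9 (GRMZM2G155216), a chlorophyll a/b-binding antenna protein, had 198, 262 and 467 RPKM in HA and 311, 189 and 441 RPKM in LA. Below the ear it had 31.7, 11.6 and 31.8 RPKM in HB, against 91.4, 48.6 and 182 RPKM in LB, without overlap. It fell by 2.01 ± 0.47 (limma adjusted p = 0.00427), and between HE and LE it differed by 0.25 (adjusted p = 0.773). glk1, a transcription factor of chloroplast development in mesophyll cells, had 5.08, 5.97 and 5.49 RPKM in HA and 4.41, 3.05 and 7.39 RPKM in LA. It had 1.03, 0.903 and 0.475 RPKM in HB, against 1.99, 1.61 and 1.90 RPKM in LB, and fell by 0.86 ± 0.25 (adjusted p = 0.0135; 0.0728 without HB replicate 3). The summed mesophyll markers, given above, were lower in all HB than in all LB libraries, and in bulk leaf RNA fewer cells of a type and less RNA per cell cannot be told apart. That sum rests on 3 abundant models: pep1 averaged 484 RPKM in HB and 3736 RPKM in LB, Ppdk1 1849 and 4888 RPKM, and mdh6 331 and 958 RPKM. Of the other 3 mesophyll models 1 was lower in HB (22.8 against 24.0 RPKM in LB) and 2 were higher (8.24 against 7.10 and 6.56 against 1.88 RPKM). The 4 bundle sheath models summed to 979 to 1689 RPKM in HB, against 1886 to 2332 RPKM in LB, so their sum was also lower in every HB library. The 4 models of ageing leaf summed to 1702 to 2214 RPKM in HB and 1905 to 2197 RPKM in LB. Most of that sum was see1, which averaged 1987 RPKM in HB and 2051 RPKM in LB. The stay-green gene SGR2, of chlorophyll breakdown, averaged 46.4 RPKM in HB and 6.09 RPKM in LB. The models named SGR1 averaged 1.91 and 0.206 RPKM in HB, against 0.0765 and 0.0212 RPKM in LB. The part of these shifts in the falls of cab-m9, glk1 and the other genes was not tested.

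NNR1 (GRMZM2G568636), a nitrate reductase, which starts nitrate assimilation, had 41.3, 54.2 and 46.1 RPKM in HA and 54.2, 50.5 and 54.0 RPKM in LA. It stood at 23.1, 23.6 and 24.5 RPKM in HE and 18.01, 24.7 and 22.3 RPKM in LE, with overlap (log2 difference 0.14, adjusted p = 0.594). Below the ear it had 6.19, 9.09 and 7.53 RPKM in HB, against 20.9, 13.9 and 18.9 RPKM in LB. The HB libraries lay below all others of the series, and the fall of 1.18 ± 0.16 (limma adjusted p = 9.02e-05) was kept in every alternative tried. The nitrite reductase NIR (GRMZM2G079381), the next enzyme, scored 0.42 and fell by 1.27 in HB against LB (adjusted p = 0.000492). PPCK1 (GRMZM2G178074), a kinase that activates phosphoenolpyruvate carboxylase, had 14.0, 13.2 and 3.80 RPKM in HA and 6.93, 5.08 and 9.85 RPKM in LA, against 1.37 to 3.96 RPKM elsewhere. HA replicate 3 overlapped the other leaves, and PPCK1 was not called in any comparison outside the rule. HrBP1 (GRMZM2G015285), named for binding bacterial harpin, had 27.9 to 67.9 RPKM in the upper leaf and fell in HB against HE by 1.52 (adjusted p = 0.0132).

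The other named genes were regulators and proteins of varied roles. WRKY96 (GRMZM2G149219), of a family of defence and ageing transcription factors, had 6.43, 9.91 and 11.6 RPKM in HA and 7.85, 13.1 and 9.03 RPKM in LA. The lower-leaf levels were 4.18, 4.24 and 3.11 RPKM in HB, against 2.44, 1.56 and 0.326 RPKM in LB. WRKY96 was thus higher in every HB library and rose by 1.33 ± 0.36 (limma adjusted p = 0.0104). This call was lost without LB replicate 3 and in a fit of HB and LB alone (adjusted p up to 0.0621). bZIP61 (GRMZM2G137046), a basic leucine zipper factor, had 4.51 to 9.78 RPKM in the upper leaf and fell in HB against HE by 1.31 (adjusted p = 0.0104; 0.0604 without HE replicate 2). PP2C24 (GRMZM2G044382), a protein phosphatase of class 2C, and adf1 (GRMZM2G117603), which severs actin filaments, had 7.82 to 12.3 and 2.20 to 9.97 RPKM in the upper leaf, against 2.35 to 6.15 and 0.15 to 1.91 RPKM in the others. Dwarf2 (GRMZM2G103773) had 4.77 to 14.0 RPKM in the upper leaf and 2.30 to 5.46 RPKM elsewhere. AUX6 (GRMZM2G035465) had 22.6 to 39.3 RPKM and 5.31 to 14.5 RPKM, and AR2 (GRMZM2G059314) 1.26 to 2.58 RPKM and 0.0259 to 0.815 RPKM. GNAT15 (GRMZM2G099305) had 58.4, 65.7 and 105 RPKM in HA and 60.2, 39.8 and 47.3 RPKM in LA. Its levels below the ear were 5.56, 11.5 and 7.26 RPKM in HB, against 14.1, 17.5 and 16.6 RPKM in LB, without overlap, and GNAT15 fell by 0.999 ± 0.265 (adjusted p = 0.00905).

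Many of the leading genes had no name in the table. GRMZM2G002142, first by score, had 5.28, 3.09 and 7.54 RPKM in HA and 5.79, 3.17 and 4.17 RPKM in LA, against 0 to 1.23 RPKM in the 12 others. GRMZM2G031724, the second, had 2.61 to 8.15 RPKM in the upper leaf and at most 0.948 RPKM elsewhere. GRMZM2G071846 and GRMZM2G400602, at ranks 4 and 5, had 5.72 to 23.6 and 4.41 to 10.3 RPKM, against at most 2.30 and 2.61 RPKM. Of these 4 genes the first 2 passed the filter on low values only through HA and LA libraries. All 4 separated the upper leaf completely at low or moderate levels, a pattern that the rule favours. GRMZM2G170338, GRMZM2G047129, GRMZM2G148495 and GRMZM2G065928 separated it as well, the last at 86.1 to 133 RPKM against 8.83 to 47.0 RPKM. GRMZM2G107771 and GRMZM2G158131 did not, since HA replicate 1 of GRMZM2G107771 (1.80 RPKM) and HA replicate 2 and LA replicate 3 of GRMZM2G158131 (3.06 and 3.35 RPKM) lay inside the range of the others. Among the most abundant were GRMZM2G051338, at 215 to 299 RPKM in the upper leaf and 62.8 to 212 RPKM elsewhere, and GRMZM2G006287, at 171 to 339 RPKM and 21.7 to 154 RPKM. GRMZM2G147966 and GRMZM2G169201 share 1 entry of the gene table and lie 4 places from TIFY25 on chromosome 7 of that assembly. Their log2 levels correlated at 0.94 over the 18 libraries, and at 0.87 and 0.86 with those of TIFY25. These libraries share the leaf positions that chose all of these genes, so the correlations do not mark copies. Reads of models that share an entry may be split between them.

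The upper leaf itself was compared between densities. None of the 150 genes was called between HA and LA by limma, either higher or lower, and 8 (5.33%) had an unadjusted p under 0.05, against 8.8% of all tested genes. Among all tested genes 0.118% were called, 0.0566% higher and 0.0614% lower in HA. The median log2 difference was -0.01 over the 150 genes and 0.05 over all tested genes, and the HA mean was the higher in 70 genes and the LA mean in 80. All 3 HA libraries lay above all 3 LA libraries for 6 genes and below for 2, against 9.12% and 5.2% of all tested genes.

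In the ear leaf 0 of the 150 genes rose at high density and 13 fell (8.7%). Among all tested genes 13.9% were called, 8.97% higher and 4.97% lower in HE. The median log2 difference was -0.10 over the 150 genes and 0.03 over all tested genes, and 36 of the 150 (24.0%) had an unadjusted p under 0.05, against 30.1% of all tested genes. The rule takes density and leaf alike, so it sets no direction here, but it caps values: a gene that rose in HE to near its upper level could not be chosen. The 13 falls ran from -3.56 to -0.95. Beside CKX5, whp1, sm2 and psy2 they included GRMZM2G141277, with 3.68, 4.73 and 3.63 RPKM in HE, against 17.2, 29.3 and 31.1 RPKM in LE, a fall of 2.51 ± 0.25 (limma adjusted p = 0.000174). GRMZM2G179810, eighth by score, had 1.74, 2.77 and 2.36 RPKM in HE, against 6.29, 10.3 and 11.9 RPKM in LE, and fell by 1.81 ± 0.38 (adjusted p = 0.00722). Both kept their groups apart and their calls without any 1 library. GRMZM2G179827 fell by 1.29 (limma adjusted p = 0.0215). This call was lost without HE replicate 2 or LE replicates 2 or 3, and with a pseudocount of 0.1 (adjusted p up to 0.102). GRMZM2G083130 had 0.973, 1.01 and 1.20 RPKM in HE, against 4.22, 4.31 and 4.86 RPKM in LE, and fell by 1.67 (adjusted p = 0.0114). Of the 13 falls 5 were kept without any 1 library. Without HE replicate 2, 6 of the 150 genes were called lower, and the share of all tested genes was not counted there.

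In the lower leaf 4 of the 150 genes rose at high density and 41 fell (2.7% and 27.3%). Among all tested genes 33.4% were called, 22.1% higher and 11.3% lower in HB, so the 150 were divided the other way from the background. The median log2 difference was -0.44 over the 150 genes and 0.16 over all tested genes, and 64 (42.7%) had an unadjusted p under 0.05, against 43.8% of all tested genes. After median-ratio rescaling and quantile normalization the median of all genes moved to 0.01 and -0.01, and that of the 150 to -0.55 and -0.62. HB libraries lay all below LB libraries for 44 genes and all above for 11, against 13.7% and 26.3% of all tested genes. The cap of the rule applies here too, and the sums of the mesophyll and bundle sheath markers were lower in HB than in LB as well; their part in the result was not tested.

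The falls in HB ran from -2.67 to -0.49 with a median of -1.29. GRMZM2G179810 had 0.198, 0.067 and 0.0995 RPKM in HB, against 6.92, 1.43 and 3.76 RPKM in LB, and fell by 2.67 ± 0.38 (limma adjusted p = 0.000127). GRMZM2G000423 had 11.5, 3.48 and 21.2 RPKM in HB, against 53.8, 40.7 and 71.4 RPKM in LB, and fell by 2.43 ± 0.40 (adjusted p = 0.000333). GRMZM2G051952 had 1.40, 0.759 and 1.70 RPKM in HB, against 12.8, 3.25 and 15.1 RPKM in LB, and fell by 2.40 ± 0.39 (adjusted p = 0.000316). In each of these 3 genes the groups did not overlap and LB replicate 2 was the lowest LB library. GRMZM2G061439 fell by 2.42 (adjusted p = 0.00806), GRMZM2G009223 by 2.19 (adjusted p = 0.000184), GRMZM2G141277 by 2.01 (adjusted p = 5.65e-05) and GRMZM2G006287 by 1.58 (adjusted p = 0.00101). GRMZM2G047129 fell by 1.07 (adjusted p = 0.0038), GRMZM2G179827 by 1.90 (adjusted p = 0.000643), and GRMZM2G065928 by 1.03 (limma adjusted p = 0.0238). The last call was lost when 1 of several libraries was left out and in a fit of HB and LB alone (adjusted p up to 0.124). Without LB replicate 2, the library that stands apart, 65 genes fell, and without LB replicate 1, 30 did; 30 of the 45 calls were kept without any 1 library.

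The genes that rose in HB were WRKY96, GRMZM2G064096, GRMZM2G030465 and GRMZM2G151903, the last named because the count is small. GRMZM2G064096 had 204, 245 and 385 RPKM in HA and 182, 142 and 181 RPKM in LA. It had 41.0, 33.2 and 19.7 RPKM in HB, against 10.2, 12.1 and 5.41 RPKM in LB, and rose by 1.72 ± 0.33 (limma adjusted p = 0.00100). In the ear leaf it had 36.0, 28.8 and 53.1 RPKM in HE, against 54.1, 69.2 and 97.9 RPKM in LE, where the HE libraries were the lower (log2 difference -0.90, adjusted p = 0.0732; 0.0423 with only these groups fitted). Its rise in HB was kept in every alternative tried. GRMZM2G030465 rose by 0.81 (adjusted p = 0.0436) and GRMZM2G151903 by 0.55 (adjusted p = 0.0359), and both calls were lost under either rescaling and without several single libraries (adjusted p up to 0.191 and 0.186). By limma 5 genes were called in both the ear and the lower leaf, 8 in the ear leaf alone, 40 in the lower leaf alone and 97 in neither. The 5 were 38.5% of the ear leaf calls and 11.1% of the lower leaf calls, against 60.0% and 25.0% for the 1771 genes called in both among all tested genes.

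**Figure D4:**
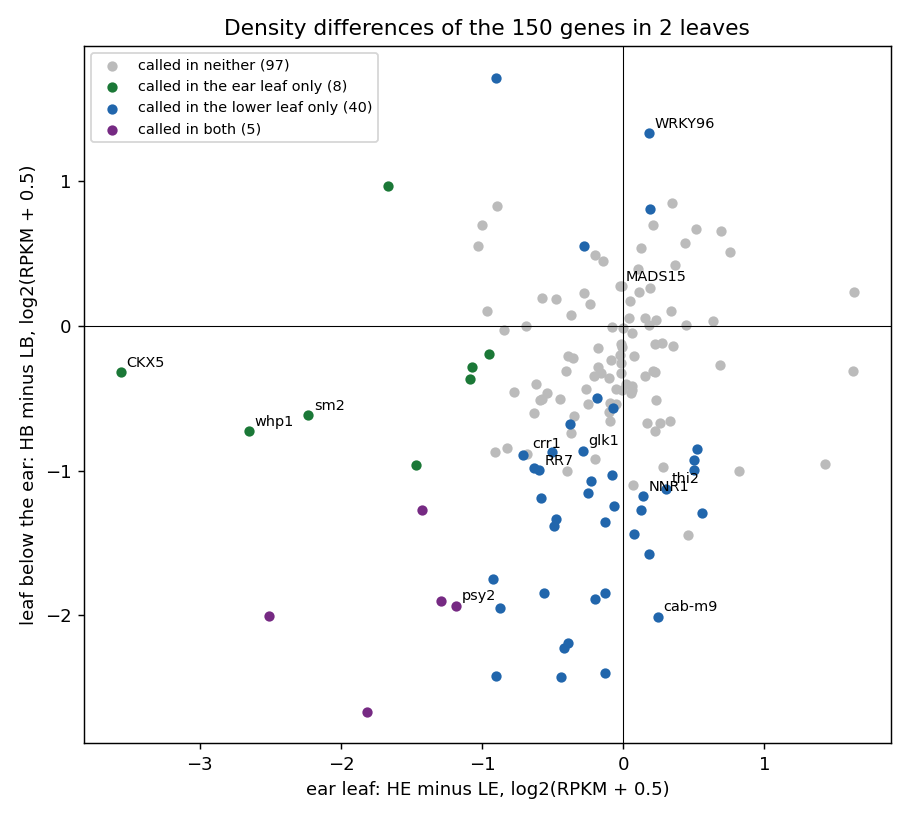
Log2 difference between densities of each of the 150 genes in the ear leaf (x axis, HE minus LE) and in the lower leaf (y axis, HB minus LB), coloured by where limma called it. CKX5, whp1 and sm2 lie far to the left with values of -0.73 to -0.32 on the y axis, cab-m9 and NNR1 lie low near 0 on the x axis, and the 5 genes called in both leaves lie at the lower left.

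Whether the density difference of the lower leaf differed from that of the ear leaf was tested as an interaction. It was called higher for 4 of the 150 genes and lower for 11 (2.7% and 7.3%), while among all tested genes 3.85% were called, 1.76% higher and 2.09% lower. NNR1 had an interaction of -1.32 ± 0.22 (limma adjusted p = 0.00694) and GRMZM2G064096 one of 2.62 ± 0.46 (adjusted p = 0.00768), and both were kept in every alternative tried. CKX5 had 3.24 ± 0.86 (limma adjusted p = 0.0457), but this was lost when any of 10 libraries was left out, and also without the filter (adjusted p up to 0.139). GRMZM2G083130 had 2.63 (limma adjusted p = 0.0165, and 0.0534 without LB replicate 3). GRMZM2G002142 had 1.73 (limma adjusted p = 0.0457, up to 0.121 in other settings). The latter passed the filter only through HA and LA libraries and averaged under 1 RPKM in HE, LE, HB and LB. For the upper leaf against the ear leaf the interaction called 0 of the 150 genes by limma and 0% of all tested genes. There 22 of the 150 (14.7%) and 15.5% of all tested genes had an unadjusted p under 0.05.

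The lower leaf was set against the ear leaf within each density, a step that the rule does not order. The rule does cap it, since a gene that rose in HB or LB to near its upper level could not be chosen. The part of this cap in the counts was not tested. At high density 5 of the 150 genes rose in HB against HE and 53 fell (3.3% and 35.3%), while among all tested genes 27.9% were called, 17.2% higher and 10.7% lower. The median log2 difference was -0.60 over the 150 genes and 0.11 over all tested genes; rescaling moved the median of all genes to -0.01 or 0.01 and that of the 150 to -0.66 or -0.68. All HB libraries lay below all HE libraries for 78 genes and above for 8, against 16.7% and 32.3% of all tested genes. At low density 0 rose and 5 fell (3.3%) in LB against LE by limma, against 0.288% of all tested genes called, 0.217% higher and 0.0708% lower. An unadjusted p under 0.05 was reached by 37 of the 150 (24.7%) and by 12% of all tested genes. Its median was -0.37 over the 150 genes and 0.00 over all tested genes, and all LB libraries lay below all LE libraries for 37 genes and above for 1, against 6.22% and 7.63%. Counted by group means, 129 of the 150 genes were ordered HA over HE over HB, 126 LA over LE over LB, and 109 both, where the first place was set by the rule. HB was the lowest group for 107 genes and LB for 28, and the next highest group after the upper leaf was LE for 83 and HE for 44. These orders were not counted over all tested genes, so whether they exceed the background is unknown.

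At high density the largest fall after that of MADS15 was in GRMZM2G051952, with 1.40, 0.759 and 1.70 RPKM in HB, against 19.2, 16.3 and 17.0 RPKM in HE, a log2 difference of -3.37 ± 0.39 (limma adjusted p = 2.8e-05). GRMZM2G000423 fell by 2.81, cab-m9 by 2.60, thi2 by 1.73, GNAT15 by 1.75 and NNR1 by 1.60 (adjusted p = 0.000121, 0.000812, 0.00132, 0.000216 and 7.51e-06). These calls were kept without any 1 library. glk1 fell by 1.03 (adjusted p = 0.00542) and BCH1 by 0.87 (adjusted p = 0.0487; up to 0.134), the second call being lost without any 1 library. The 5 that rose were GRMZM2G083130, GRMZM2G052266, GRMZM2G330635, GRMZM2G002142 and GRMZM2G121700, by 1.30, 1.28, 1.09, 0.90 and 0.66, and each of these calls was lost without at least 2 single libraries (adjusted p up to 0.227). The levels of the genes that rose stayed under those of the upper leaf in HB by the rule. GRMZM2G002142 and BCH1 passed the filter on low values only through HA and LA libraries. They averaged 0.109 and 0.757 RPKM in HE and 0.700 and 0.184 RPKM in HB. Their calls thus compare values under the 1 RPKM of the filter.

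At low density the 5 falls were MADS15, GRMZM2G064096, GRMZM2G134703, GRMZM2G179679 and GRMZM2G141277. GRMZM2G064096 had 10.2, 12.1 and 5.41 RPKM in LB, against 54.1, 69.2 and 97.9 RPKM in LE, and fell by 2.96 ± 0.33 (limma adjusted p = 0.000248), a call kept in every alternative tried. GRMZM2G134703 had 4.06, 2.07 and 1.41 RPKM in LB, against 6.35, 7.05 and 8.50 RPKM in LE, and fell by 1.46 (adjusted p = 0.0382). GRMZM2G179679, listed at 0 RPKM in all 3 HB libraries, fell by 1.44 in LB (adjusted p = 0.0388), and GRMZM2G141277 by 1.36 (adjusted p = 0.0338). The last 3 calls were lost without LE replicate 3 and without LB replicates 2 or 3. They were also lost without the filter and in a fit of LB and LE alone (limma adjusted p up to 0.235 over all settings).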

How the data were processed

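RNA of 18 leaf samples, isolated by a Trizol-type method, was made into libraries with an NEBNext Ultra kit, per the labels' protocols. Trimmomatic 0.35, HISAT 0.1.6, HTSeq 0.6.1 and the build B73 RefGen_v3 are named per the submitters' processing notes. The authors deposited RPKM; its formula, gene lengths and strandedness are not given in the sources used here, so antisense or overlapping genes may share reads. Relative depth was read from 3632 rare genes, where 99% of 6806 values were whole multiples of 1 read within 0.1 read (20% if spread evenly); absolute depth is unknown, so no counting intervals are given.

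The log2(RPKM + 0.5) values of 21184 genes (1 RPKM or more in 3 or more libraries) were fitted in limma 3.58.1 (R 4.3.3) with 6 group means and a variance trend, 12 residual and 4.47 prior degrees of freedom; the pseudocount understates changes of low genes. Tests were 2-sided, p-values were adjusted by Benjamini-Hochberg over all 21184 genes and called under 0.05; with 3 against 3 libraries the smallest p of an exact permutation test is 0.1. The fit was tested on simulated data. Contrasts of HA or LA with other leaves formed the rule and were not tested. Members, lists and families were chosen with earlier results of these data known.

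Named are the 15 highest scores, genes with a table name, ranks 148 to 153, the 5 most abundant in the upper leaf, and the largest calls per comparison with at least 5 RPKM and no overlap of libraries; others named for a count of 5 or fewer (GRMZM2G083130, GRMZM2G121700, GRMZM2G151903, GRMZM2G179679) and the relatives outside the 150 were chosen after their values were seen. Names came from a RefSeq table of Zm-B73-REFERENCE-NAM-5.0, another assembly, so no coordinates are given. Replicate numbers were checked as pairs: of 15 pairs of groups 2 (HA with HE, HA with LB) had 3 correlations above 0.1, and none of the compared pairs did. No batch or date is given in the labels.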

Additional observations from a re-analysis of the deposited data

Results flagged for a closer look

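For 9 of the genes named in the text the density difference of the lower leaf, HB minus LB, differed from that of the ear leaf, HE minus LE, by limma's interaction test over all genes (adjusted p under 0.05). The difference was positive for CKX5 (3.24), GRMZM2G083130 (2.63), GRMZM2G064096 (2.62) and GRMZM2G002142 (1.73). It was negative for GRMZM2G051952 (-2.27), GRMZM2G009223 (-1.80), GRMZM2G006287 (-1.76), GNAT15 (-1.50) and NNR1 (-1.32). NNR1 and GRMZM2G064096 kept this call in every alternative tried, with adjusted p up to 0.0235 and 0.0242. For GRMZM2G083130 it was lost without LB replicate 3 (0.0534). For GNAT15, GRMZM2G051952, GRMZM2G009223 and GRMZM2G006287 it was lost when any of 8 to 10 libraries was left out, and also without the filter. Their limma adjusted p reached 0.0955, 0.0966, 0.126 and 0.0933. CKX5 and GRMZM2G002142 lost it in the same way, and GRMZM2G002142 had passed the filter only through HA and LA libraries.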

How the results depend on the processing

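The rule kept 126 (without HA replicate 3) to 147 of the 150 genes when 1 library was left out, 131 and 135 with pseudocounts of 0.1 and 1, 149 without the filter, 114 with at least 5 RPKM, 143 after median-ratio rescaling and 130 after quantile normalization. No direction was reversed. The share of all tested genes called was not counted for any alternative setting or left-out library. The counts here thus describe stability alone. Calls of the 150 that moved by over 1.5 times were as follows, and the cause was not tested. With a pseudocount of 0.1, 7 rose in HB against LB. With a pseudocount of 1, 1 rose in HA against LA, 3 in HB against HE, and 2 interactions of lower and ear leaf were higher. Without the filter, 1 rose in HA against LA, 2 in HB against LB and 1 in HB against HE, 2 fell in LB against LE, and the interaction was called higher for 2 and lower for 5. Median-ratio rescaling left 2 rises in HB against LB, 1 in HB against HE and 2 higher interactions, and quantile normalization 2 and 2 rises. With the replicate block, 1 rose in HA against LA, 2 in HE against LE and 3 in HB against HE, 8 fell in LB against LE, 19 interactions of lower and ear leaf were lower, and 1 of upper and ear leaf was higher. No compared pair of groups had all 3 same-number correlations above 0.1, the bar set for pairing. Libraries correlated best with their own number in 2 of 6 cases for HA and LA, 3 for HE and LE, 3 for HB and HE and 3 for LB and LE, but in 6 of 6 for HB and LB (correlations 0.0695, 0.0972 and 0.124), a hint of pairing there from the data and not from the design. With only the compared groups fitted, 2 rose and 28 fell in HE against LE, 2 rose in HB against LB, 2 fell in LB against LE, and the interaction was higher for 2 and lower for 7.

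With 1 library left out, 0 to 1 rose and 6 to 12 fell in HE against LE, 1 to 6 rose and 30 to 65 fell in HB against LB, 0 to 3 rose and 37 to 50 fell in HB against HE, and 0 rose and 2 to 9 fell in LB against LE. The lower and ear interaction was higher for 1 to 5 and lower for 2 (without LB replicate 3) to 27 (without LB replicate 2), and the upper and ear one higher for 0 to 1 and lower for 0; HA and LA had 0 calls throughout. Of 77 calls of named genes, 41 were kept in every alternative. Of their uncalled differences, 52 were called in at least 1 alternative, 29 of them in one that left out no library. The 3 libraries per group and unknown depth limit the precision most for genes at very low levels, such as sm2 in HE.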
